A study of Homo sapiens with 6 samples.

Results

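A set of 8 long noncoding RNAs that have been studied in prostate cancer was followed in 6 RNA-seq libraries of the human C4-2 cell line, an androgen-independent derivative of the LNCaP prostate cancer line. The 8 were NEAT1, MALAT1, PCGEM1, DRAIC, PCA3, PCAT1, PCAT6 and SCHLAP1. They were picked by name and matched through Ensembl identifiers and GENCODE 29 symbols, and all 8 were found among the 59565 loci of the count table, which holds 16054 genes of the long noncoding classes. Of the 6 libraries, 3 came from the enzalutamide-resistant line (C4-2 Enz-R) and 3 from the parental line (C4-2 parental). Enzalutamide is an antiandrogen drug. The labels name no other treatment, do not say whether the drug was present when RNA was taken, and do not say how many resistant clones there were. They also do not say that the 3 libraries of a line came from separate cultures, so the p-values below measure the spread between libraries, which may be technical.

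Long noncoding RNAs are transcripts that are capped and often spliced like messenger RNAs but carry no long reading frame. Some, such as NEAT1 and MALAT1, stay in the nucleus and take part in nuclear bodies. Others, such as PCA3, PCGEM1 and SCHLAP1, are known for being found mainly in prostate tissue or prostate cancer, and PCA3 is measured in urine as a marker of the disease. Several are reported to respond to androgen. The tables do not separate spliced from unspliced RNA or the isoforms of a gene, so every value below is for the whole gene.

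Library totals ran from 15673404 to 23351394 counts in Enz-R and from 19400321 to 28247038 counts in parental cells. Mitochondrially encoded genes took 14.5% to 15.5% of the counts in Enz-R and 8.78% to 11.3% in parental cells. All long noncoding genes together took 2.72% to 3.09% of the counts in Enz-R and 2.33% to 2.68% in parental cells. All 10 luminal prostate markers reached a level of 1 CPM (1 count per 1000000 counts of the scaled library) in both lines, with a summed level of 5444 to 5657 CPM in Enz-R and 9608 to 10200 CPM in parental cells. Of the basal, neuroendocrine, fibroblast, endothelial and leukocyte markers, 1 of 3, 1 of 4, 3 of 5, 0 of 3 and 2 of 4 reached 1 CPM in Enz-R, and 1 of 3, 1 of 4, 3 of 5, 1 of 3 and 1 of 4 did so in parental cells.

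The sequences that make NEAT1 and MALAT1 unusual are at their 3′ ends. Neither RNA has an ordinary poly(A) tail there: an enzyme that matures transfer RNAs cuts the transcript, and the new end folds back so that a genome-encoded A-rich tract pairs with U-rich motifs in a triple helix. The ends are shown because the labels describe libraries made from messenger RNA, and these ends lack the usual tail. The last 130 bases of the long NEAT1 transcript (NEAT1-202, 22743 bases, chr11:65445411-65445540, plus strand, GRCh38, from the GENCODE 29 annotation) and the 130 bases of MALAT1 that end where an annotated small RNA begins, 353 bases before the end of MALAT1-202 (chr11:65505987-65506116, plus strand), are given 5′ to 3′ as DNA. Capitals mark every run of 8 or more bases that both share.
NEAT1 long end: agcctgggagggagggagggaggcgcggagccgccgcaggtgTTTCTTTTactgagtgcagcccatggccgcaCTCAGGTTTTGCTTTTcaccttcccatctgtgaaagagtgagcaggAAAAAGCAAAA
MALAT1 segment: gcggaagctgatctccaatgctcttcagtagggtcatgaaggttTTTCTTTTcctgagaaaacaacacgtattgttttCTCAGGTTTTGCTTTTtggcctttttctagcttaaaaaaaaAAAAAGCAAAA
NEAT1 short end: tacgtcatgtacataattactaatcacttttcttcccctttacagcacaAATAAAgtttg
The first pair shares 3 such runs: TTTCTTTT and the 16 bases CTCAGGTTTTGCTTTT, which hold the U-rich motifs, and the A-rich AAAAAGCAAAA at the very end. The last line is the final 60 bases of a short NEAT1 transcript (NEAT1-208, 2994 bases, chr11:65426454-65426513, plus strand), which ends in the ordinary way and has the polyadenylation signal AATAAA, in capitals, 5 bases before its end. The gene-level counts do not say how much of the NEAT1 signal was the short and how much the long RNA.

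Of the 8 genes, 7 had enough reads to be tested. NEAT1, PCAT1 and PCAT6 were higher in Enz-R cells, and PCA3 and SCHLAP1 were lower. MALAT1 and DRAIC did not pass the test, and PCGEM1 was not detected in either line. A gene was called when edgeR's quasi-likelihood test gave a Benjamini-Hochberg adjusted p under 0.05 over all 19029 genes tested. By that rule 64.8% of all tested genes were called, 32.4% higher and 32.3% lower in Enz-R. Among the 3140 tested long noncoding genes 51.5% were called, 31.3% higher and 20.3% lower. The 5 called of 7 tested are therefore close to what any tested gene showed in these libraries, and the results lie in which RNAs moved, in which direction and by how much. The same 5 genes had groups that did not overlap in CPM, which was the case for 68.9% of all tested genes. The median log2 fold change was 0.15 over the 7 RNAs, 0.16 over all tested long noncoding genes and 0.011 over all tested genes.

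**Figure D1:**
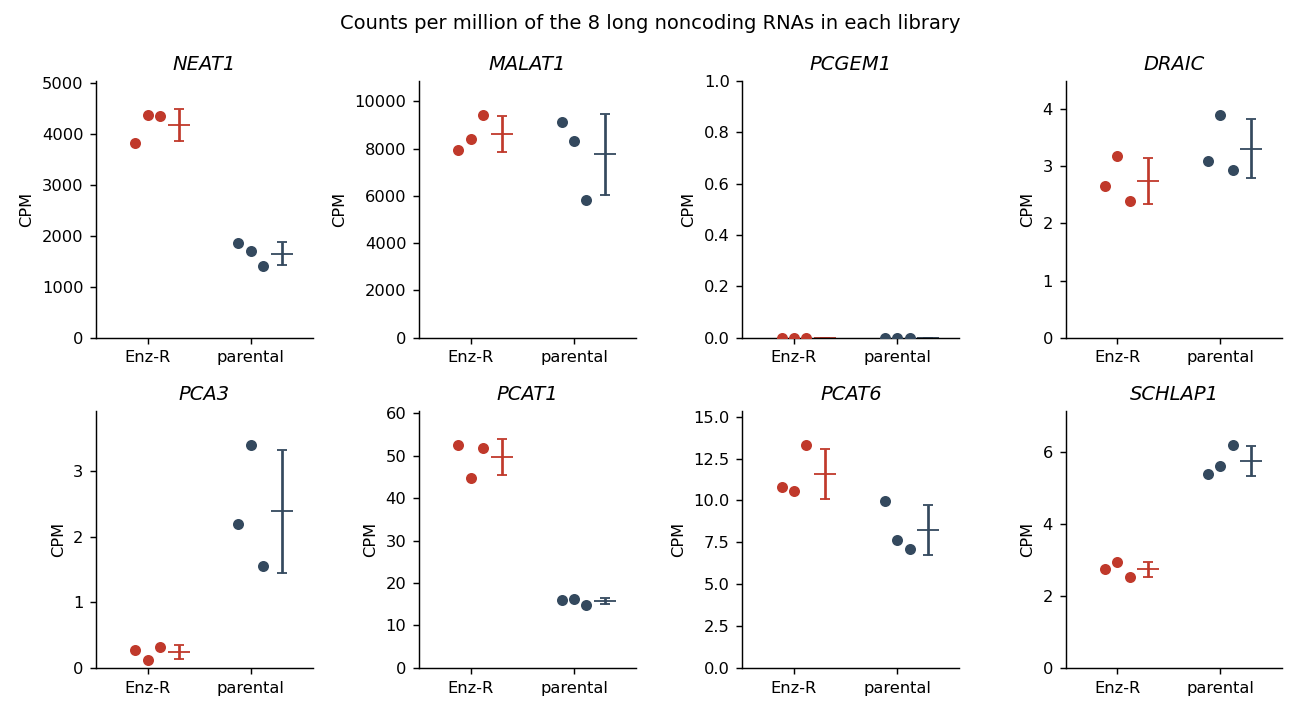
Level in CPM (linear axis from 0) of each of the 8 RNAs in the 3 Enz-R libraries (red, left) and the 3 parental libraries (blue, right), where points are libraries and bars are the mean ± SD. The lines do not overlap for NEAT1, PCAT1 and PCAT6, which are higher in Enz-R, or for PCA3 and SCHLAP1, which are lower, while MALAT1 and DRAIC overlap and PCGEM1 is at 0 in all 6 libraries.

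NEAT1, the RNA on which the nuclear bodies called paraspeckles are built, was higher in Enz-R cells. Its gene (ENSG00000245532, chr11:65422774-65445540, plus strand, 8 annotated transcripts) had 83526, 74430 and 67064 counts in the Enz-R libraries, against 53262, 33769 and 28843 in the parental libraries. Scaled to library size these were 3815, 4378 and 4340 CPM in Enz-R and 1855, 1691 and 1408 CPM in parental cells. Every Enz-R library was far above every parental library. The means were 4178 ± 314 CPM in Enz-R and 1651 ± 226 CPM in parental cells (SD, n = 3 each), a log2 fold change of 1.34 ± 0.10 (SE), or 2.53-fold, with an edgeR adjusted p of 1.67e-08. NEAT1 took 13.2%, 14.5% and 13.9% of all long noncoding counts in the Enz-R libraries, against 7.04%, 6.65% and 6.33% in the parental libraries.

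MALAT1, an abundant RNA of the nuclear speckles whose gene lies beside NEAT1 (ENSG00000251562, chr11:65497688-65506516, plus strand, 17 transcripts), did not pass the test. It had 7944, 8422 and 9442 CPM in Enz-R and 9113, 8321 and 5825 CPM in parental cells. Parental library 3 was the lowest of all 6, and the other parental values lay within the Enz-R range. The means were 8602 ± 765 CPM in Enz-R and 7753 ± 1716 CPM in parental cells (SD, n = 3 each), with a log2 fold change of 0.15 ± 0.13 and an edgeR adjusted p of 0.330. Without parental library 3 the log2 fold change was -0.027 (adjusted p = 0.822). An annotated small RNA (ENSG00000274072) that begins at the base after the printed MALAT1 segment, and an RNA on the opposite strand that shares 396 exon bases with MALAT1 (ENSG00000270117), had 0 counts in all 6 libraries. Both lie wholly within MALAT1 exons, and how the counting treated reads shared by overlapping genes is not given. These counts of 0 therefore cannot show whether the RNAs were absent.

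Within each library the ratio of NEAT1 to MALAT1 counts does not depend on library size. It was 0.480, 0.520 and 0.460 in Enz-R and 0.203, 0.203 and 0.242 in parental cells, with means of 0.487 ± 0.0306 in Enz-R and 0.216 ± 0.0221 in parental cells (SD, n = 3 each). All 3 Enz-R ratios were above all 3 parental ones. An exact two-sided permutation test gave p = 0.1, the smallest value that 3 against 3 libraries allow. The pair together made up 40.5%, 42.4% and 44.0% of all long noncoding counts in Enz-R, against 41.6%, 39.4% and 32.5% in parental cells.

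PCAT1, an RNA of the gene-poor 8q24 region that is reported to repress BRCA2, rose the most of the 7 tested RNAs. Its gene (ENSG00000253438, chr8:126556323-127419050, plus strand, 32 transcripts) had 1151, 760 and 799 counts in Enz-R and 460, 326 and 305 in parental cells. These were 52.6, 44.7 and 51.7 CPM in Enz-R and 16.0, 16.3 and 14.9 CPM in parental cells. The libraries of each line lay close together and far from those of the other line. The means were 49.7 ± 4.31 CPM in Enz-R and 15.7 ± 0.758 CPM in parental cells (SD, n = 3 each), with a log2 fold change of 1.66 ± 0.08, or 3.15-fold, and an edgeR adjusted p of 1.82e-10. BRCA2, the DNA repair gene named as its target, was lower in Enz-R (35.7 ± 0.964 CPM in Enz-R and 46.0 ± 2.40 CPM in parental cells, log2 fold change -0.36 ± 0.07, edgeR adjusted p = 0.000202). As 32.3% of all tested genes were called lower, this call is a common one, and a link between BRCA2 and PCAT1 was not tested.

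PCAT6, whose gene (ENSG00000228288, chr1:202810954-202812156, plus strand, 3 transcripts) starts 1484 bases from the gene of the histone demethylase KDM5B, rose less. It had 10.8, 10.6 and 13.3 CPM in Enz-R and 9.96, 7.66 and 7.13 CPM in parental cells. The gap between the lowest Enz-R and the highest parental library was small. The means were 11.6 ± 1.52 CPM in Enz-R and 8.25 ± 1.5 CPM in parental cells (SD, n = 3 each), a log2 fold change of 0.47 ± 0.14 with an edgeR adjusted p of 0.00883. Without parental library 3, whose value was the lowest, the log2 fold change was 0.37 and the adjusted p was 0.0520, above the threshold.

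PCA3, the urine marker, fell the most. Its gene (ENSG00000225937, chr9:76691980-76863307, plus strand, 17 transcripts) had 6, 2 and 5 counts in Enz-R and 63, 68 and 32 in parental cells. These were 0.274, 0.118 and 0.324 CPM in Enz-R and 2.19, 3.41 and 1.56 CPM in parental cells. PCA3 was thus near zero, under 0.5 CPM, in Enz-R cells only, and low in parental cells, and it passed the filter on low counts through the parental libraries. The log2 fold change was -3.28 ± 0.41, or 9.71-fold lower, with an edgeR adjusted p of 4.84e-06. The summed counts, 13 in Enz-R and 163 in parental cells, gave a scaled ratio of 0.102 with a 95% counting interval of 0.0529 to 0.179, which covers counting error only. In bulk RNA, fewer cells with the transcript and less transcript in each cell cannot be told apart. The summed level of the luminal prostate markers was also lower in Enz-R, as given above, and its part in the change of PCA3 was not tested.

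SCHLAP1, an RNA found mainly in aggressive prostate cancer and reported to counter the SWI/SNF chromatin remodelling complex, was lower in Enz-R cells. Its gene (ENSG00000281131, chr2:180692104-180916939, plus strand, 1 transcript) had 60, 50 and 39 counts in Enz-R and 155, 112 and 127 in parental cells. These were 2.74, 2.94 and 2.52 CPM in Enz-R and 5.40, 5.61 and 6.20 CPM in parental cells. The groups were tight and well apart. The means were 2.74 ± 0.209 CPM in Enz-R and 5.73 ± 0.415 CPM in parental cells (SD, n = 3 each), with a log2 fold change of -1.06 ± 0.16, or 2.09-fold lower, and an edgeR adjusted p of 2.5e-05. A gene on the opposite strand (ENSG00000225258) shares 212 bases, 14.8% of the SCHLAP1 exons. It had 24, 20 and 18 counts in Enz-R and 32, 20 and 28 in parental cells, and without strand information reads in the shared stretch cannot be assigned to either gene.

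DRAIC, reported to be lost as prostate cancer becomes castration resistant, was low in both lines (ENSG00000245750, chr15:69463026-69843120, plus strand, 20 transcripts). It had 58, 54 and 37 counts in Enz-R and 89, 78 and 60 in parental cells, which were 2.65, 3.18 and 2.39 CPM in Enz-R and 3.10, 3.91 and 2.93 CPM in parental cells. The groups overlapped, and the log2 fold change of -0.27 ± 0.19 did not pass the test (edgeR adjusted p = 0.232). PCGEM1, an androgen-regulated RNA known from prostate tissue (ENSG00000227418, chr2:192749845-192776899, plus strand, 2 transcripts), had 0 counts in all 6 libraries and was the only one of the 8 near zero in both lines. A count of 0 allows up to 3 counts, or 0.137, 0.176 and 0.194 CPM in the Enz-R libraries and 0.104, 0.150 and 0.146 CPM in the parental libraries.

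**Figure D2:**
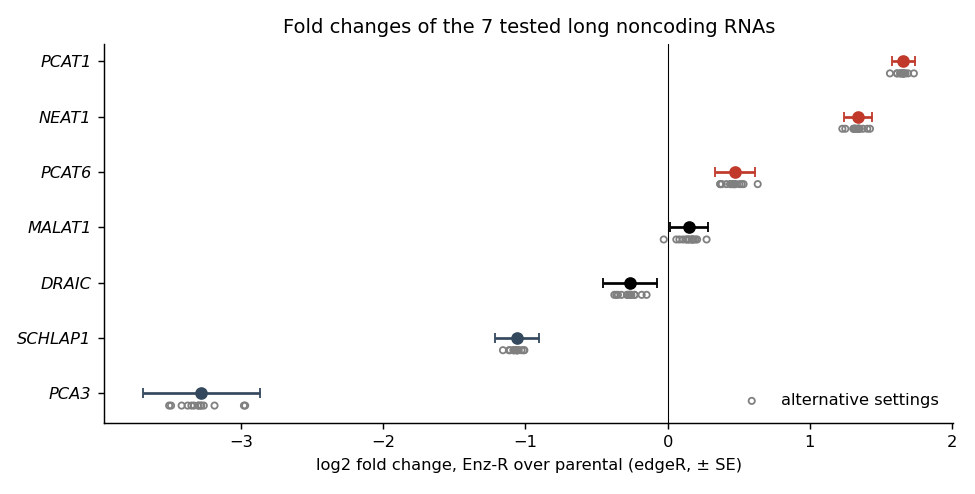
Log2 fold change (Enz-R over parental) of the 7 tested RNAs, where filled points with bars are the edgeR estimate ± SE (red higher, blue lower, black not called) and open grey points are the same value under each alternative setting. PCAT1 (1.66), NEAT1 (1.34), PCAT6 (0.47), SCHLAP1 (-1.06) and PCA3 (-3.28) kept their sign in every setting shown, and MALAT1 reached -0.027 in 1 of them.

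The 8 genes spanned a wide range of levels, which can be set beside each other only per length of exon (RPKM, CPM divided by the kilobases of merged exons). MALAT1 averaged 974 ± 86.6 RPKM in Enz-R and 878 ± 194 RPKM in parental cells and ranked 1 in both lines among the 16054 long noncoding genes. NEAT1 averaged 184 ± 13.8 RPKM in Enz-R and 72.5 ± 9.93 RPKM in parental cells, ranking 4 in Enz-R and 6 in parental cells. PCAT6 came next, with 13.0 ± 1.71 RPKM in Enz-R and 9.27 ± 1.69 RPKM in parental cells (SD, n = 3 each). Below these the order differed between the lines. In Enz-R cells PCAT1 (2.95 ± 0.256 RPKM) was above SCHLAP1 (1.90 ± 0.145 RPKM), and in parental cells PCAT1 (0.934 ± 0.0450 RPKM) was below SCHLAP1 (3.99 ± 0.289 RPKM), with no overlap between the 2 RNAs in either line. DRAIC (0.148 ± 0.0216 RPKM in Enz-R and 0.179 ± 0.0283 RPKM in parental cells) was above PCA3 in Enz-R (0.0168 ± 0.00758 RPKM). In parental cells DRAIC and PCA3 (0.168 ± 0.0661 RPKM) overlapped and cannot be put in order. Merged exons include those of rare long isoforms, which lowers the values of genes with many isoforms such as PCAT1, DRAIC and PCA3. For NEAT1 the 22767 merged bases are close to the long transcript alone, so its RPKM and rank depend on the share of the short RNA. The order of PCAT1 and SCHLAP1 in parental cells depends on their merged lengths, 16848 and 1436 bases. In CPM, PCAT1 was above SCHLAP1 in both lines.

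**Figure D3:**
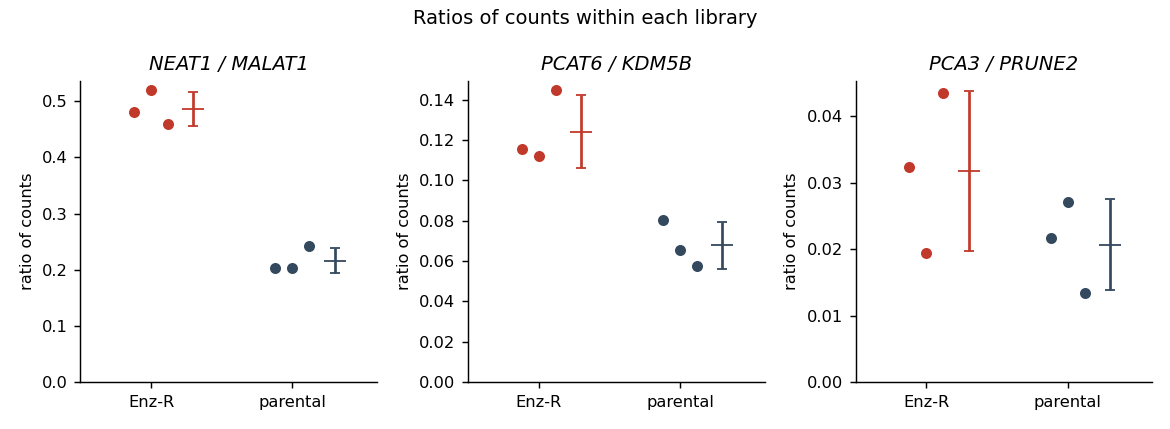
Ratio of counts of 2 genes within each library (linear axes from 0) for NEAT1 to MALAT1, PCAT6 to KDM5B and PCA3 to PRUNE2, in 3 Enz-R libraries (red, left) and 3 parental libraries (blue, right), where points are libraries and bars are the mean ± SD. The first and second ratios do not overlap between the lines (0.487 in Enz-R and 0.216 in parental cells for NEAT1 to MALAT1), and the third does.

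PCA3 lies on the opposite strand inside PRUNE2 (chr9:76611376-76906087, minus strand), a gene that PCA3 RNA is reported to pair with and down-regulate. PRUNE2 had 185, 103 and 115 counts in Enz-R and 2910, 2512 and 2393 in parental cells. It averaged 7.32 ± 1.20 CPM in Enz-R and 115 ± 12.4 CPM in parental cells (SD, n = 3 each), a log2 fold change of -3.95 ± 0.11 with an edgeR adjusted p of 2.58e-13. Both genes of the pair were therefore lower in Enz-R. The ratio of PCA3 to PRUNE2 counts was 0.0324, 0.0194 and 0.0435 in Enz-R and 0.0216, 0.0271 and 0.0134 in parental cells, and the groups overlapped (exact two-sided permutation test, p = 0.3, against a smallest possible value of 0.1). The genes share 1060 exon bases, 7.48% of the PCA3 exons, and the labels do not say that the libraries or the counting kept strand. How many of the PCA3 counts came from PRUNE2 transcripts was not tested.

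The promoters of this pair, and that of PCAT6, are shown because each of these RNAs starts close to or within a protein-coding gene. They are from RefSeq (GRCh38.p14) and run from 250 bases before to 50 bases after each start, 5′ to 3′ on the strand of the gene. They lie at chr9:76764186-76764485 (plus strand) for PCA3, chr9:76906065-76906364 (minus strand) for PRUNE2 and chr1:202810704-202811003 (plus strand) for PCAT6. The RefSeq start of PCA3 lies inside the longer GENCODE 29 gene. Capitals mark matches on either strand to the GC box GGGCGG and the forkhead motif TGTTTAC.
PCA3: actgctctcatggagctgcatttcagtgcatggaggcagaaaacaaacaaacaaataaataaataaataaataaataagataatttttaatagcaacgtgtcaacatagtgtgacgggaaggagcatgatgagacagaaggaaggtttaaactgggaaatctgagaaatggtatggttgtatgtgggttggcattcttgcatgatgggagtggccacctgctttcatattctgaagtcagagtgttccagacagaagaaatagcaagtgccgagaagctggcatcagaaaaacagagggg
PRUNE2: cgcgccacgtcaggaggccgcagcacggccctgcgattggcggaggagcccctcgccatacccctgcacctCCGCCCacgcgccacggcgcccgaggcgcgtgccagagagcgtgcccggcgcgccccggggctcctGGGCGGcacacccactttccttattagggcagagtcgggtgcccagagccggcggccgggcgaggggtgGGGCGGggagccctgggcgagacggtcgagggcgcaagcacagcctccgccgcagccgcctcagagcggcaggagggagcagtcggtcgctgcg
PCAT6: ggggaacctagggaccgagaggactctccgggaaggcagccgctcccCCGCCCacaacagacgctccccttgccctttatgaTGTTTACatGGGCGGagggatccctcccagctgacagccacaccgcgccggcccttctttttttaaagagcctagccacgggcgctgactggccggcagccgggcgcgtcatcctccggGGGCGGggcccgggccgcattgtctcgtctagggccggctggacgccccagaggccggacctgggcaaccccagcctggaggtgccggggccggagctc
The PCA3 window held neither motif and was 40.7% G and C, against a median of 58.7% over 35116 promoters in the table. The PRUNE2 window held 3 GC boxes and was 76.3% G and C. The PCAT6 window held 3 GC boxes and 1 forkhead motif and was 69.7% G and C. Among all 35116 promoters 45.0% held a GC box and 3.42% the forkhead motif. The motifs do not overlap one another, and a match is a description of the letters only. Of the 8 RNAs, 5 matched an entry (MALAT1, PCGEM1, DRAIC, PCA3 and PCAT6), and NEAT1, PCAT1 and SCHLAP1 did not.

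PCAT6 and KDM5B are transcribed away from each other, and they differed in direction. KDM5B averaged 93.5 ± 1.23 CPM in Enz-R and 122 ± 4.20 CPM in parental cells (SD, n = 3 each), with a log2 fold change of -0.38 ± 0.06 and an edgeR adjusted p of 3.21e-05. The ratio of PCAT6 to KDM5B counts was 0.115, 0.112 and 0.145 in Enz-R and 0.0801, 0.0655 and 0.0574 in parental cells. All 3 Enz-R ratios were above the parental ones (exact two-sided permutation test, p = 0.1, the smallest that 3 against 3 allow). This separation had to follow, since in CPM every Enz-R library was above every parental one for PCAT6 and below for KDM5B. The ratio therefore adds no support to the calls of PCAT6 and KDM5B. The neighbour on the other side, RABIF, did not pass the test (log2 fold change 0.023 ± 0.11, edgeR adjusted p = 0.867).

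The protein-coding genes reported as partners of these RNAs, those above included, were tested as 14 genes. Of these, 9 were lower, 1 was higher and 4 were not called, where 32.3% of all tested genes were lower and 32.4% higher. Their median log2 fold change was -0.37, against 0.011 over all tested genes. For DRAIC, which is reported to bind the IκB kinase complex, the kinase subunit IKBKB was higher (log2 fold change 0.67 ± 0.07) and the kinase subunit CHUK was lower (-0.44 ± 0.10). The regulatory subunit IKBKG was also called lower (-0.81 ± 0.32, edgeR adjusted p = 0.0363), but its groups overlapped, it has a near-identical pseudogene copy that can share its reads, and it was called in 10 of 15 settings. FOXA1, a transcription factor reported to drive DRAIC, did not pass the test (-0.15 ± 0.07, edgeR adjusted p = 0.0673), but it was called lower in 5 of 15 settings, the replicate block among them (adjusted p = 0.0463).

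For SCHLAP1, the SWI/SNF subunit SMARCB1 with which it is reported to interact was slightly lower in Enz-R (log2 fold change -0.26 ± 0.06), while SMARCA4, an ATPase of the same complex that is also among the paraspeckle genes below, was higher (0.24 ± 0.06, edgeR adjusted p = 0.00196). Of the Polycomb proteins that several long noncoding RNAs are reported to bind, SUZ12 was lower (-0.42 ± 0.06) and the methyltransferase EZH2 was not called (-0.16 ± 0.09, edgeR adjusted p = 0.160), though it was called lower in 3 of 15 settings, the replicate block among them (adjusted p = 0.0436). FKBP5, an androgen-induced immunophilin that PCAT1 is reported to affect together with the phosphatase PHLPP1, averaged 32.3 ± 1.59 CPM in Enz-R and 157 ± 13.1 CPM in parental cells (SD, n = 3 each), a log2 fold change of -2.28 ± 0.08 with an edgeR adjusted p of 1.9e-12. PHLPP1 was not called (0.026 ± 0.09).

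The genes for proteins of the nuclear bodies that NEAT1 and MALAT1 belong to went in both directions. Of 16 paraspeckle protein genes tested, 6 were higher, 5 lower and 5 not called, and of 12 speckle or MALAT1-processing protein genes, 3 were higher, 4 lower and 5 not called. Over all tested genes 32.4% were higher and 32.3% lower. The median log2 fold change over the 28 was -0.012. Of the core paraspeckle proteins that bind NEAT1, SFPQ was lower (375 ± 21.5 CPM in Enz-R and 542 ± 13.0 CPM in parental cells, SD, n = 3 each, log2 fold change -0.53 ± 0.06, edgeR adjusted p = 3.54e-06). NONO (0.048 ± 0.07, edgeR adjusted p = 0.551) and PSPC1 (0.11 ± 0.06, edgeR adjusted p = 0.125) were not called. The larger rises were of SS18L1 (0.97 ± 0.06), TAF15 (0.40 ± 0.07) and ELAC2 (0.39 ± 0.06), the nuclease that helps to mature transfer RNA ends. RBM12 (-0.77 ± 0.07) and SRRM1 (-0.59 ± 0.07), a splicing coactivator, fell together with SFPQ.

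**Figure D4:**
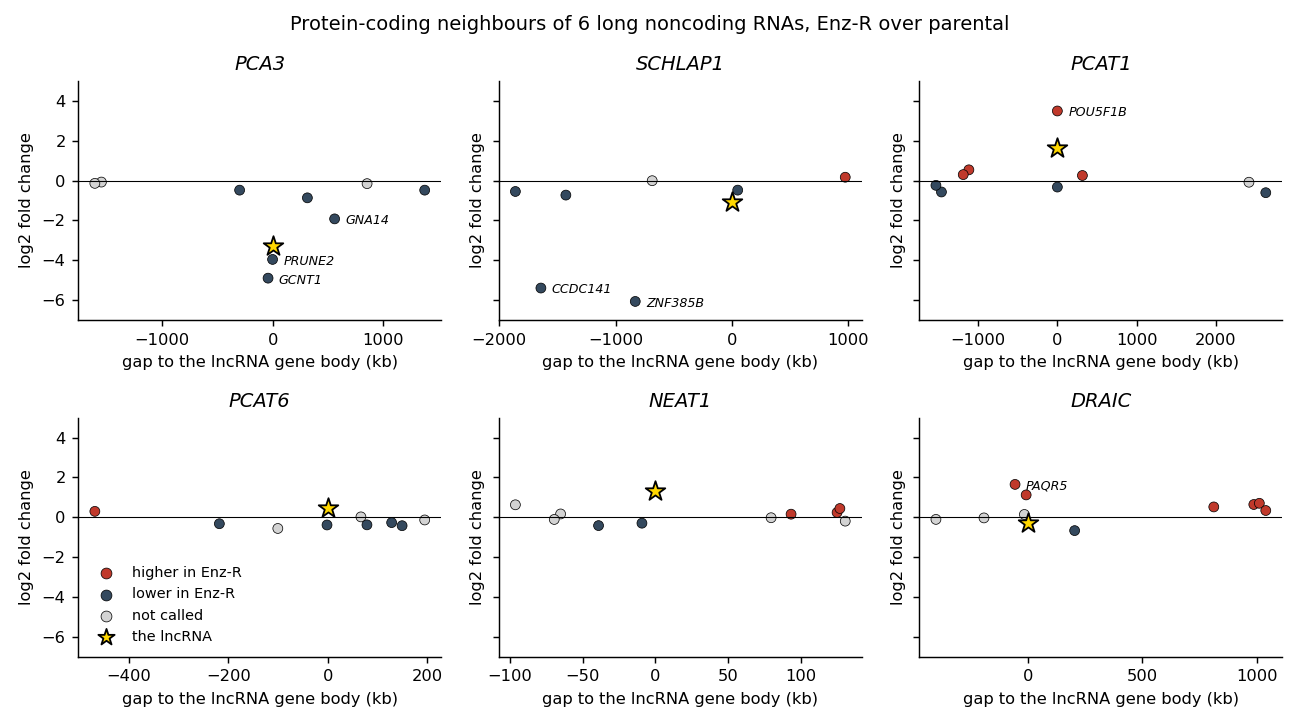
Log2 fold change (Enz-R over parental, edgeR) of the nearest tested protein-coding genes on each side of 6 of the RNAs, against the gap in kilobases between the gene bodies (negative to the left on the chromosome, 0 for overlapping genes), with the RNA itself as a star. Genes next to PCA3 are all below 0, down to -4.89 for GCNT1, while the other panels hold both directions, such as POU5F1B (3.50) and LRATD2 (-0.32) at PCAT1.

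The 5 nearest protein-coding genes on each side, and any that overlapped, were taken for each RNA. Of 73 such genes 61 were tested, and 18 were higher, 26 lower and 17 not called, with a median log2 fold change of -0.14. Next to PCA3, 0 of 9 were higher and 6 were lower, against 32.4% higher and 32.3% lower of all tested genes, so the share called was close to the 64.8% of all genes. GCNT1, a glycosyltransferase gene 40777 bases to the left of PCA3, had 22, 18 and 23 counts in Enz-R and 977, 716 and 705 in parental cells, a log2 fold change of -4.89 ± 0.13 with an edgeR adjusted p of 1.6e-13. PRUNE2, whose gene body overlaps that of GCNT1 on the opposite strand, had a log2 fold change of -3.95, and PCA3 had -3.28. Whether GCNT1 and PRUNE2 share reads was not tested. VPS13A, a lipid transport gene on the right, fell less (-0.86 ± 0.07). FOXB2, which lies between PCA3 and VPS13A, had 0 counts in all 6 libraries, and GNA14 (-1.92 ± 0.43) had at most 4 counts in an Enz-R library and passed the filter only through the parental libraries. OSTF1, NMRK1 and GNAQ near PCA3 were not called.

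Next to SCHLAP1, 1 of 7 tested neighbours was higher and 5 were lower, where 32.4% of all tested genes were higher and 32.3% lower. The nearest on the right, the ubiquitin-conjugating enzyme gene UBE2E3 at 50309 bases, was lower (log2 fold change -0.48 ± 0.08). On the left the nearest, the splicing gene CWC22 at 684991 bases, was not called (-0.0030 ± 0.08). ZNF385B, farther to the left, had 12, 3 and 11 counts in Enz-R and 913, 709 and 613 in parental cells, 67.5-fold lower by summed counts with a 95% counting interval of 46.0 to 104. CCDC141, also on the left, had 1 count in Enz-R against 71 in parental cells, 55.8-fold lower with an interval of 9.69 to 2234, and like ZNF385B it passed the filter only through the parental libraries. Both are on the left side of SCHLAP1, which was 2.09-fold lower itself.

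PCAT1 lies among other noncoding genes and its body overlaps POU5F1B, a retrogene copy of POU5F1, on the same strand. POU5F1B had 302, 184 and 173 counts in Enz-R and 42, 17 and 15 in parental cells, averaging 11.9 ± 1.62 CPM in Enz-R and 1.02 ± 0.392 CPM in parental cells (SD, n = 3 each). Its log2 fold change was 3.50 ± 0.21 (edgeR adjusted p = 1.79e-09), beside 1.66 for PCAT1. The genes share 848 exon bases, 5.03% of the PCAT1 exons, and POU5F1B resembles POU5F1 in sequence, so its counts are uncertain. LRATD2, on the opposite strand at the other end of PCAT1 with 1163 shared exon bases, was lower in Enz-R (-0.32 ± 0.06, edgeR adjusted p = 0.000209). Reads in the stretch shared with POU5F1B, and without strand information those shared with LRATD2, cannot be assigned to either gene. Their part in the PCAT1 counts and in the rise of PCAT1 was not tested.

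The noncoding genes inside the PCAT1 body share no exon bases with it. CASC19, on the opposite strand, had 576, 442 and 414 counts in Enz-R and 78, 56 and 58 in parental cells, and averaged 26.4 ± 0.398 CPM in Enz-R and 2.78 ± 0.0602 CPM in parental cells (SD, n = 3 each, log2 fold change 3.24 ± 0.11, edgeR adjusted p = 2.2e-12). It was added to the genes described after its values were seen. PCAT1 was 2.00, 1.72 and 1.93 times CASC19 in counts in Enz-R and 5.90, 5.82 and 5.26 times in parental cells, so the RNAs of this stretch changed by unequal amounts. PRNCR1, on the same strand as PCAT1, rose too (2.62 ± 0.28), while CASC8 at the right end did not pass the test (0.43 ± 0.33, edgeR adjusted p = 0.267). CCAT2 had at most 4 counts in any library. The nearest tested gene to the left of the PCAT1 body, the pseudokinase gene TRIB1 at 1117918 bases, was higher (0.54 ± 0.08). MYC, the transcription factor gene 316384 bases to the right, was called higher (0.26 ± 0.09, edgeR adjusted p = 0.0147) with overlapping groups, and the call was lost in 3 of 15 settings. PVT1, a long noncoding gene reported to stabilise MYC protein, was higher as well (0.53 ± 0.06), and PCAT1 was 0.647, 0.554 and 0.594 times PVT1 in counts in Enz-R and 0.272, 0.281 and 0.273 times in parental cells.

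NEAT1 and MALAT1 share the same 10 nearest protein-coding genes, of which 3 were higher, 2 lower and 5 not called. For this count and those below, the shares over all tested genes were 32.4% higher and 32.3% lower. FRMD8, 9249 bases to the left of NEAT1, was lower in Enz-R (log2 fold change -0.29 ± 0.06, edgeR adjusted p = 0.000989). None of the 10 had a log2 fold change as large as that of NEAT1. Next to DRAIC, 6 of 10 were higher and 1 was lower: the ribosomal protein gene RPLP1 at 6832 bases (1.13 ± 0.08) and the steroid-binding membrane receptor gene PAQR5 (1.65 ± 0.14) rose, and the corepressor gene TLE3 at 204670 bases fell (-0.67 ± 0.06). Next to PCAT6, 1 of 9 was higher and 5 were lower, KDM5B among them. Next to PCGEM1, 3 of 7 were higher and 3 lower. TMEFF2, the nearest on the left at 554136 bases, had 0 counts in Enz-R and 1 in parental cells. NABP1, a single-stranded DNA binding protein gene and the nearest tested on that side at 1053186 bases, was higher (0.93 ± 0.07). The zinc transporter gene SLC39A10, the nearest on the right of PCGEM1 at 2799078 bases, was lower (-0.90 ± 0.08).

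**Figure D5:**
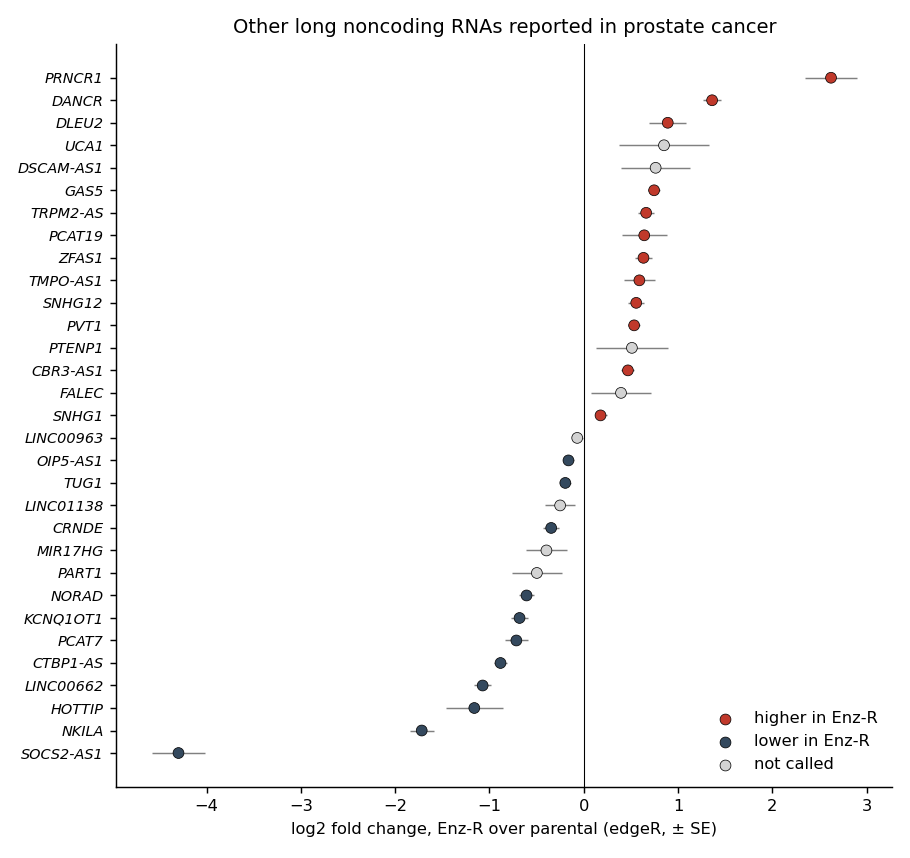
Log2 fold change (Enz-R over parental, edgeR, ± SE) of the 31 tested genes among 48 other long noncoding RNAs reported in prostate cancer, in order of size. The values run from 2.62 for PRNCR1 to -4.30 for SOCS2-AS1, with 12 called higher (red), 11 called lower (blue) and 8 not called (grey). Of all tested long noncoding genes, 31.3% were called higher and 20.3% lower.

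Among 48 other long noncoding RNAs reported in prostate cancer, 44 were in the table and 31 were tested, of which 12 were higher, 11 lower and 8 not called (median log2 fold change 0.18). Beside this, 31.3% of all tested long noncoding genes were higher and 20.3% lower, and 64.8% of all tested genes were called. After PRNCR1, the larger rises were of DANCR (1.36 ± 0.10), DLEU2 (0.89 ± 0.19), GAS5 (0.75 ± 0.06) and TRPM2-AS (0.66 ± 0.09). DANCR and GAS5 host small nucleolar RNAs. DANCR averaged 187 ± 31.4 CPM in Enz-R and 72.8 ± 5.77 CPM in parental cells, and GAS5 averaged 702 ± 10.9 CPM in Enz-R and 419 ± 7.37 CPM in parental cells (SD, n = 3 each). SOCS2-AS1, reported as induced by androgen, fell the most of the 31. It had 5, 3 and 3 counts in Enz-R and 128, 84 and 73 in parental cells, a log2 fold change of -4.30 ± 0.29 (edgeR adjusted p = 5.46e-09). It passed the filter on low counts only through the parental libraries, and PRNCR1 only through the Enz-R libraries. NKILA, reported to hold back NF-κB signalling, was also lower (4.61 ± 0.675 CPM in Enz-R and 15.3 ± 1.01 CPM in parental cells, -1.72 ± 0.13). HOTTIP (-1.16 ± 0.30), LINC00662 (-1.07 ± 0.09) and CTBP1-AS (-0.88 ± 0.07) followed. The antisense genes SOCS2-AS1, TRPM2-AS and CTBP1-AS can share reads with their partner genes, since the counting is not stated to use strand.

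Of the 44, 13 were too low to test. HOTAIR had 4, 8 and 4 counts in Enz-R and 6, 5 and 5 in parental cells, H19 had 7, 12 and 3 counts in Enz-R and 2, 5 and 2 in parental cells, and LINC00261 had 0 counts in all 6 libraries. PCAT4, PCAT5, PCAT14 and PCAT18, named like PCAT1 and PCAT6 from a screen of prostate cancer transcripts, had at most 3 counts in any library. PCAT7 was lower in Enz-R (6.24 ± 0.371 CPM in Enz-R and 10.3 ± 0.752 CPM in parental cells, log2 fold change -0.71 ± 0.12), and PCAT19 was called higher (0.64 ± 0.24, edgeR adjusted p = 0.0275) in 8 of 14 settings.

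The genes whose pattern over the 6 libraries came closest to each RNA were found by the root mean square difference of mean-centred log2 CPM among 14394 named genes with at least 1 CPM on average. For SCHLAP1 they were the pseudogene IMPDH1P5 (0.0264) and the kinase gene PSKH1 (0.0348). For NEAT1 they were PBX4 (0.0425), a homeobox gene, and STXBP6 (0.0578). For PCAT1 they were SPAG8 (0.0678) and ZNF165 (0.0686), for PCAT6 GTF2IP20 (0.0689) and KIF12 (0.0712), for DRAIC ACTR3C (0.0682) and CSKMT (0.0717), and for MALAT1 GOLGA6L9 (0.0844) and ABHD17AP1 (0.0858). PCA3, with the fewest counts, had its nearest genes farther off, MKX (0.268) and ZNF732 (0.282). With 3 libraries in each of 2 lines, any gene with a like fold change scores as close.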

How the data were processed

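RNA from 3 Enz-R and 3 parental libraries of C4-2 cells was read as 150 bp paired ends, and libraries were grouped by the labels. The deposited values are raw counts per gene, which the authors obtained from reads mapped with HISAT2 on GRCh38, per the submitters' processing notes. Which HISAT2 version, counting program, annotation and strand option were used is not given in the sources used here. All 58676 Ensembl identifiers of the table were in GENCODE 29, the source of symbols, positions and exon lengths here; the other 889 loci were unannotated.

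The lines were compared by glmQLFit and glmQLFTest of edgeR 4.0.16 (R 4.3.3) after filterByExpr and TMM scaling, without covariates, with Benjamini-Hochberg adjustment over 19029 genes. CPM uses TMM-scaled library sizes. Standard errors come from each fold change and its F statistic. The common biological coefficient of variation was 7.20%. Library totals limit the precision of low genes, and counting intervals and the limit for a count of 0 cover counting error only. The method was tested on simulated data.

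The members and lists were chosen with earlier results of these data known. Genes named were all 8 RNAs, partners, overlapping and nearest neighbours, the largest changes per list (5 each way for other RNAs with at least 1 CPM in the higher line, 3 for others), and the 2 most alike genes; other named genes were chosen after their values were seen. Some genes that the rule names are not reported here. Ratios within libraries were compared by exact permutation. Alternatives were RLE and total count scaling, no filter, at least 50 counts in 3 libraries, DESeq2 1.42.0, limma-voom (limma 3.58.1), a replicate block, leaving out each library, and leaving out mitochondrial genes.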

Additional observations from a re-analysis of the deposited data

How the results depend on the processing

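NEAT1 (log2 fold change 1.23 to 1.42), PCAT1 (1.56 to 1.73) and SCHLAP1 (-1.16 to -1.01) kept direction and call under all 14 alternatives, as did PCA3 (-3.50 to -2.97) under the 13 that tested it. With at least 50 counts in 3 libraries PCA3 was not tested, so 1 of the 8 RNAs was called lower, and 2 partners were called higher, against 1. Leaving out libraries in turn moved MALAT1 between -0.027 and 0.27 and PCAT6 between 0.37 and 0.63. MALAT1 turned to -0.027 (adjusted p = 0.822) and PCAT6 fell to 0.37 (adjusted p = 0.0520, no longer called) without parental library 3; the cause was not tested. Over all results, these included, 268 comparisons with an alternative kept direction and, where tested, the call, or a count within 1.5 times. Of the others, 2 counts moved further, 1 value changed sign and 1 lost its call. A count within 1.5 times need not hold the same genes. The comparisons include the ratio of group sums of scaled counts, which has no test and was compared by sign only. Total count scaling shifted the median of all genes to -0.08, against 0.011.

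Whether replicate numbers pair the libraries is not known. Same-numbered libraries correlated at 0.0493, -0.00808 and 0.0112, and with 3 libraries in each line such values cannot exclude pairing. With the replicate number as a block, 6179 genes were higher and 6158 lower, against 6173 and 6150 without it, and the 8 RNAs stayed at 3 higher and 2 lower. Enz-R libraries 1 and 3 correlated best with their own number and library 2 did not. FOXA1 and EZH2 were called lower with the block, making 11 partners lower, against 9. PCA3, SCHLAP1 and DRAIC rest on few counts, which limits their precision.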
